A study of Mus musculus with 2 samples.

Results

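Potassium channel genes were followed across the cell types that could be told apart in nuclei sorted from mouse femur. A gene entered by its name alone, as one that begins with Kcn, goes on with lower-case letters and ends in a number. Of the 32293 genes measured, 92 met this rule, and 36 of them had at least 20 unique molecular identifiers (UMIs, each standing for 1 captured RNA molecule) in the nuclei kept. The counts below cover these 36, and the other 56 held too few molecules for any value. RNA and open chromatin (the assay for transposase-accessible chromatin, ATAC) had been read from the same nuclei with the 10x Multiome kit. The mice were Prrx1-cre; R26R(tdTomato/+) at postnatal day 21. In them the Prrx1 promoter drives Cre in the mesenchyme of the limb buds, and cells that had Cre, with their descendants, keep the red tdTomato label. Femurs without their distal growth plate and proximal end were digested with enzymes, tdTomato+ cells were sorted, and about 15000 nuclei of pooled littermates of both sexes were loaded. There was 1 RNA library and 1 ATAC library, so every interval below covers counting error only, no difference was tested between animals, and nuclei are not replicates.

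Potassium channels let potassium leave or enter the cell along its gradient and so set the resting membrane potential and the return to it after excitation. Pore-forming subunits fall into voltage-gated channels, channels opened by intracellular calcium or sodium, inward rectifiers that pass current mainly near rest, and leak channels that are open at most voltages. Accessory subunits bind the pores and change their gating or transport. In the skeleton, channels of this kind have been studied in bone cells under mechanical load, in cartilage under osmotic stress, in the smooth muscle of vessels and in the volume control of red cells.

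Each nucleus was assigned by the UMIs of fixed marker genes, and each of the resulting sets is called a gate. The stromal gates held 596 reticular, 278 osteoblast, 113 osteocyte, 215 chondrocyte, 95 fibrous (tendon, synovial or periosteal markers) and 120 mural nuclei, 1417 in all. The blood gates held 163 erythroid, 171 granulocyte, 223 macrophage, 121 B-lymphoid and 106 other blood nuclei, 784 in all. The labels call the sorted cells stromal, yet these 784 nuclei passed blood gates, and the tdTomato transcript stood at 335 CPM (counts per 1000000, here of UMIs outside mitochondrial genes, with a 95% exact Poisson interval of 321 to 349) in the stromal gates against 49.0 (39.6 to 59.9) in the blood gates. Free RNA, read from barcodes without a nucleus, held 55.4 CPM of this transcript, which lies within the interval of the blood gates. Of the remaining nuclei, 2218 passed no gate, 37 passed a stromal and a blood gate and 23 an endothelial gate, and 1 nucleus each passed a T and NK or a glial gate. Markers used to assign the nuclei describe the gates here and are no check of them. Postn stood at 1655 CPM in fibrous and Ptprc at 554 in other blood nuclei. Lepr stood at 1353 CPM in reticular, Bglap at 12231 in osteoblast, Dmp1 at 3732 in osteocyte, Acan at 3581 in chondrocyte, Myh11 at 849 in mural, Slc4a1 at 3572 in erythroid, Ltf at 2849 in granulocyte, Csf1r at 516 in macrophage and Pax5 at 741 in B-lymphoid nuclei. The 4481 barcodes kept held 13598508 UMIs, with a median of 1698 UMIs and 33981 ATAC counts, and the gates' sums ran from 238126 UMIs (other blood) to 2112707 (osteoblast). A median of 16.4% of UMIs were mitochondrial, from 8.17% in reticular to 26.3% in macrophage nuclei.

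These 6 stretches of open chromatin show where single members carried gate-specific accessibility. For each of 6 members, only peaks with at least 50 ATAC counts in the member's gate were considered. Of these, the peak with the highest ratio between that gate and all other gates, stromal and blood together, was taken. The central 300 bases are printed, plus strand, mouse genome GRCm38 (mm10). Values here are ATAC counts of the peak per 1000000 ATAC counts in peaks, called ATAC CPM, and since the peaks were chosen for this ratio they describe it and support nothing. In erythroid nuclei the peak in an exon of Kcnn4 at chr7:24376904-24377746, 7062 bases inside the gene from its start, held 82.1 ATAC CPM (73.6 to 91.3) against 2.84 (2.49 to 3.22) in the other gates. In macrophages an intron peak of Kcnk13 at chr12:99993263-99994146 held 17.4 ATAC CPM (14.8 to 20.2) against 0.378 (0.255 to 0.540). In reticular nuclei an intron peak of Kcnq3 at chr15:66123981-66124900 held 21.8 ATAC CPM (19.96 to 23.9) against 1.88 (1.56 to 2.24) in the other gates. These first 3 peaks show members of red cells, macrophages and marrow stroma, and the next 3 those of bone, cartilage and vessel wall. In osteoblasts an intron peak of Kcnt2 at chr1:140378598-140379441 held 16.1 ATAC CPM (13.8 to 18.6) against 2.62 (2.27 to 3.004). In chondrocytes an intron peak of Kcnk5 at chr14:20161216-20162079 held 15.9 ATAC CPM (13.5 to 18.6) against 0.470 (0.331 to 0.648). In mural nuclei an intron peak of Kcnk3 at chr5:30617607-30618526 held 17.1 ATAC CPM (13.5 to 21.5) against 1.26 (1.03 to 1.52). Capitals mark letters that match a searched motif, and a sequence in lower case throughout holds no match.
Kcnn4, erythroid, chr7:24377175-24377474: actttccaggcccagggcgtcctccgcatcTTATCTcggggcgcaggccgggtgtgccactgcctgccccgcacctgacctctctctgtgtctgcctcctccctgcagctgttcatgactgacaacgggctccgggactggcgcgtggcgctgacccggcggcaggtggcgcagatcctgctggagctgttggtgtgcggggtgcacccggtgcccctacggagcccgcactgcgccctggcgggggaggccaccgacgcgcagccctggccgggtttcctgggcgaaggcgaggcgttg
Kcnk13, macrophage, chr12:99993555-99993854: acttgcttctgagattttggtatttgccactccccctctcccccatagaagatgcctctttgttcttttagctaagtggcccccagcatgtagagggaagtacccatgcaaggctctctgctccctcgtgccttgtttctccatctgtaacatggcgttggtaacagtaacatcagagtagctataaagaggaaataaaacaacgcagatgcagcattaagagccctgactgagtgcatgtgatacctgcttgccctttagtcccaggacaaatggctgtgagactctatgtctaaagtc
Kcnq3, reticular, chr15:66124291-66124590: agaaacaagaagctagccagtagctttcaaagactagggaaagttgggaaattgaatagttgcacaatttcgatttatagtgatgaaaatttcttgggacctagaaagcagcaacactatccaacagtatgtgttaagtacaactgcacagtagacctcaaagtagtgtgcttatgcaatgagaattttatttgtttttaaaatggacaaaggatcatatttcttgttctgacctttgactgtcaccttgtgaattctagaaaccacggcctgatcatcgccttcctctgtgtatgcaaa
Kcnt2, osteoblast, chr1:140378870-140379169: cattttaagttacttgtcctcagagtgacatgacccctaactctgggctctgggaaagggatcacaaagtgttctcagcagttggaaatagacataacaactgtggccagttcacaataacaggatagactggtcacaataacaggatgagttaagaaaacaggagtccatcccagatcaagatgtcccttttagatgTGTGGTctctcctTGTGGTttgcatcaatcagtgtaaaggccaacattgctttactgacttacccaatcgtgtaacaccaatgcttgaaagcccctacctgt
Kcnk5, chondrocyte, chr14:20161498-20161797: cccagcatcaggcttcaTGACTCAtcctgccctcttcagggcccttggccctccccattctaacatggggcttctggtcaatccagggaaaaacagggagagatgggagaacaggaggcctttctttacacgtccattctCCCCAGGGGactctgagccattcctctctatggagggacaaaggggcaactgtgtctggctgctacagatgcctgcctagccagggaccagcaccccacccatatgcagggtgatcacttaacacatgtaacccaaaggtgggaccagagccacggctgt
Kcnk3, mural, chr5:30617917-30618216: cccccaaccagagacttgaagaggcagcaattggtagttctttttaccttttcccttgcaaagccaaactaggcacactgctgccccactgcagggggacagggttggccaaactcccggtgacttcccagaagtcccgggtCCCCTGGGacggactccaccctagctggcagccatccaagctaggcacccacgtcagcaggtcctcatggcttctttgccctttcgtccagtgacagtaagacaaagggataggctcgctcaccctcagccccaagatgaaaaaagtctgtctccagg

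The motifs were searched on both strands, where N is any base: AGATAA for factors of the GATA family, GAGGAAGT for PU.1, the CArG box for SRF, CCCNNGGG for EBF factors, ACAATG for SOX factors, TGTGGT for RUNX factors and TGANTCA for AP-1. Over the central 300 bases of all 203502 peaks on the 21 chromosomes with sequence, 12.2% held the GATA letters, 4.08% PU.1, 1.60% CArG, 11.4% EBF, 14.7% SOX, 32.4% RUNX and 20.4% AP-1. The erythroid Kcnn4 sequence held 1 GATA match. The Kcnt2 sequence held 2 RUNX matches, the Kcnk5 sequence 2 EBF matches that overlap each other and 1 AP-1 match, and the Kcnk3 sequence 1 EBF match. Kcnk13 and Kcnq3 held none of these letters. A match is a stretch of letters and not a shown binding site, and these shares say how often the letters occur in any peak.

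**Figure D1:**
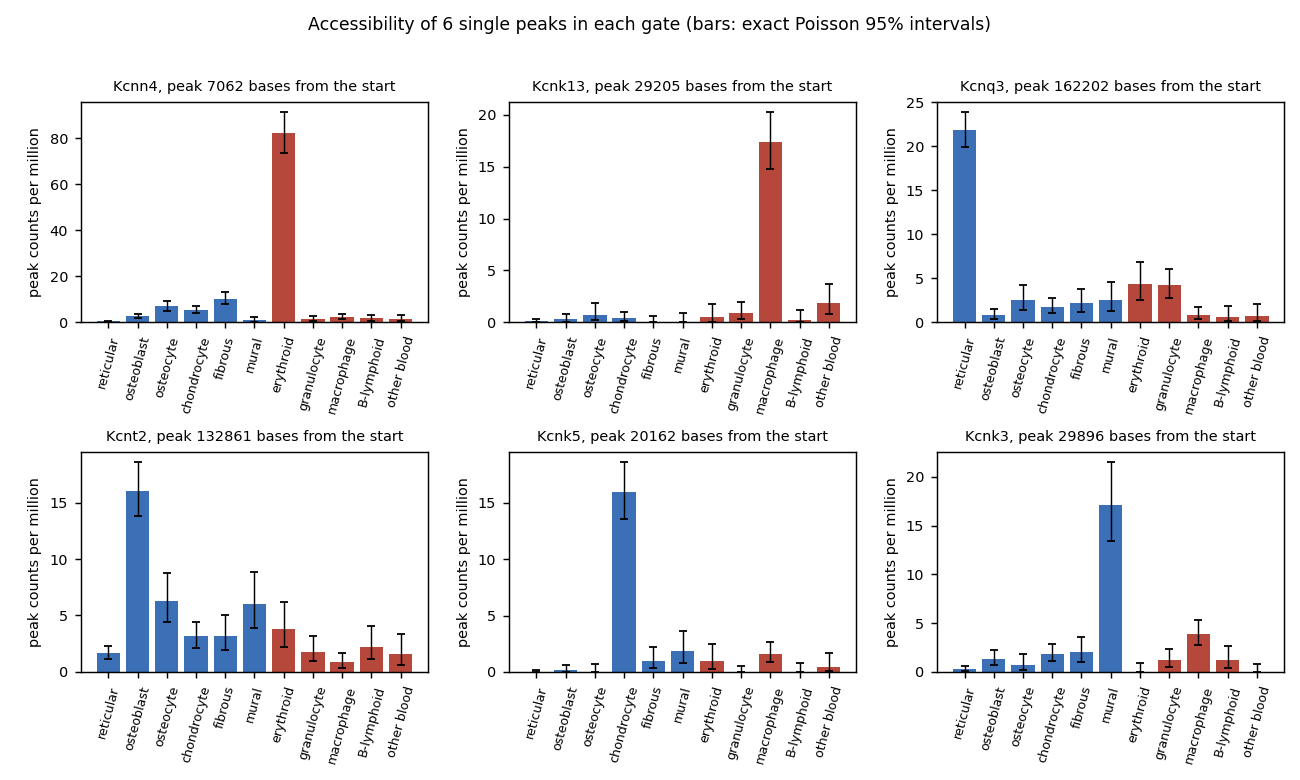
Accessibility of the printed peaks in the gates, as ATAC CPM with exact Poisson 95% intervals on the vertical axis and the gates on the horizontal axis, 1 panel for each member, stromal gates in blue and blood gates in red. The peaks were chosen for their ratio, and the Kcnn4 peak stands at 82.1 ATAC CPM in erythroid nuclei.

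The members differed widely in how much of the potassium channel RNA they made up. All 92 members held 17661 UMIs, of which the 56 members under 20 UMIs held 295. Kcnma1 alone held 7394 UMIs, or 41.9% of the total, in a gene of 725 kb, and whether introns were counted is not given in the sources used here, so this share is not a level per length. By family, 6 of 8 calcium- or sodium-activated pore genes were described (8497 UMIs), 14 of 40 voltage-gated (3404), 6 of 14 leak channel genes (1478), 2 of 15 inward rectifiers (175) and 8 of 15 accessory genes (4107). The inward rectifiers were thus the family with the smallest share of members described.

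Members with 1 to 19 UMIs, which are not described, include Kcna3, Kcna4, Kcna5, Kcna10, Kcnc1, Kcnc2, Kcnd3, Kcnf1, Kcng1, Kcng3, Kcnh3, Kcnh4, Kcnh5, Kcnh6, Kcnh7, Kcnh8, Kcns1, Kcns3, Kcnn2, Kcnn3, Kcnj1, Kcnj3, Kcnj4, Kcnj5, Kcnj6, Kcnj8, Kcnj9, Kcnj11, Kcnj12, Kcnj13, Kcnj14, Kcnj15, Kcnj16, Kcnk7, Kcnk9, Kcnk10, Kcnk12, Kcnk16, Kcne2, Kcne3, Kcnip2, Kcnmb1, Kcnmb2 and Kcnmb3. Another 11, Kcna1, Kcna7, Kcnc4, Kcng4, Kcns2, Kcnv1, Kcnv2, Kcnk4, Kcnk15, Kcnk18 and Kcne1, had 0 UMIs in the nuclei kept. A count of 0 allows up to 3 counts by a one-sided limit, which is 1.42 CPM in the osteoblast sum and 12.6 CPM in the other blood sum. The intervals used elsewhere are two-sided and reach higher, to 15.5 CPM in the other blood sum. At this depth nothing can be said about their presence below that level.

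Levels below are CPM with the 95% exact Poisson interval in parentheses, and log2 ratios compare a gate with the sum of the other gates of its side, after 0.5 counts were added to each side. A member was called higher or lower at a 2-fold difference with at least 20 UMIs over both sides. Levels are compared between gates within 1 gene, never between genes. Of the 36 members, 26 overlap another annotated gene and 24 of these one on the opposite strand, while 4 overlap a protein-coding gene (Kcnip1, Kcnip4, Kcnh1 and Kcnab2). Reads shared within such pairs could not be separated here, and the use of strand in counting is not given in the sources used here. Values of all 26 are therefore uncertain, with Kcnma1, Kcnq3, Kcnk2 and Kcnab1 among the 24. Across the sides, 29 members could be compared. The stromal gates were 2-fold higher for 17 members, or 58.6%, beside 17.9% of all 12557 genes compared, and lower for 6, or 20.7%, beside 27.1%. The stromal sum held 6520935 UMIs and the blood sum 1938998, so a member high only in blood reached the minimum less easily. Members and all genes were not matched for count level, here or in the counts by gate below, so these shares describe the members and test nothing. In order of the ratio, the members higher in stroma included Kcnab1 (3.33), Kcna6, Kcnma1, Kcne4, Kcnn1, Kcnk3, Kcnq3, Kcnk1, Kcnb2, Kcnt2, Kcnk5, Kcnd2, Kcnip3, Kcnh1 and Kcnk2 (1.20), and those lower were Kcnk13 (-5.52), Kcna2, Kcnj10, Kcnab2, Kcnn4 and Kcnj2 (-1.11). Of the inward rectifiers only Kcnj10 and Kcnj2 had enough UMIs, and both are in the blood list. The Kcnj2 call was kept under 5 of 12 other settings and the Kcnj10 call under 8 of 12, and both were lost with at most 10% or at most 20% mitochondrial UMIs. Of the members listed as higher in stroma, the Kcnip3 and Kcnn1 calls were kept under 8 of 12 and the Kcnd2 call under 9. The others listed were kept under at least 10. The Kcnip3 call was lost where intervals had to be apart. The median log2 ratio of the members was 1.75 and that of all genes -0.40. With the 10 most abundant genes left out of the denominator the all-gene median rose by 0.24.

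**Figure D2:**
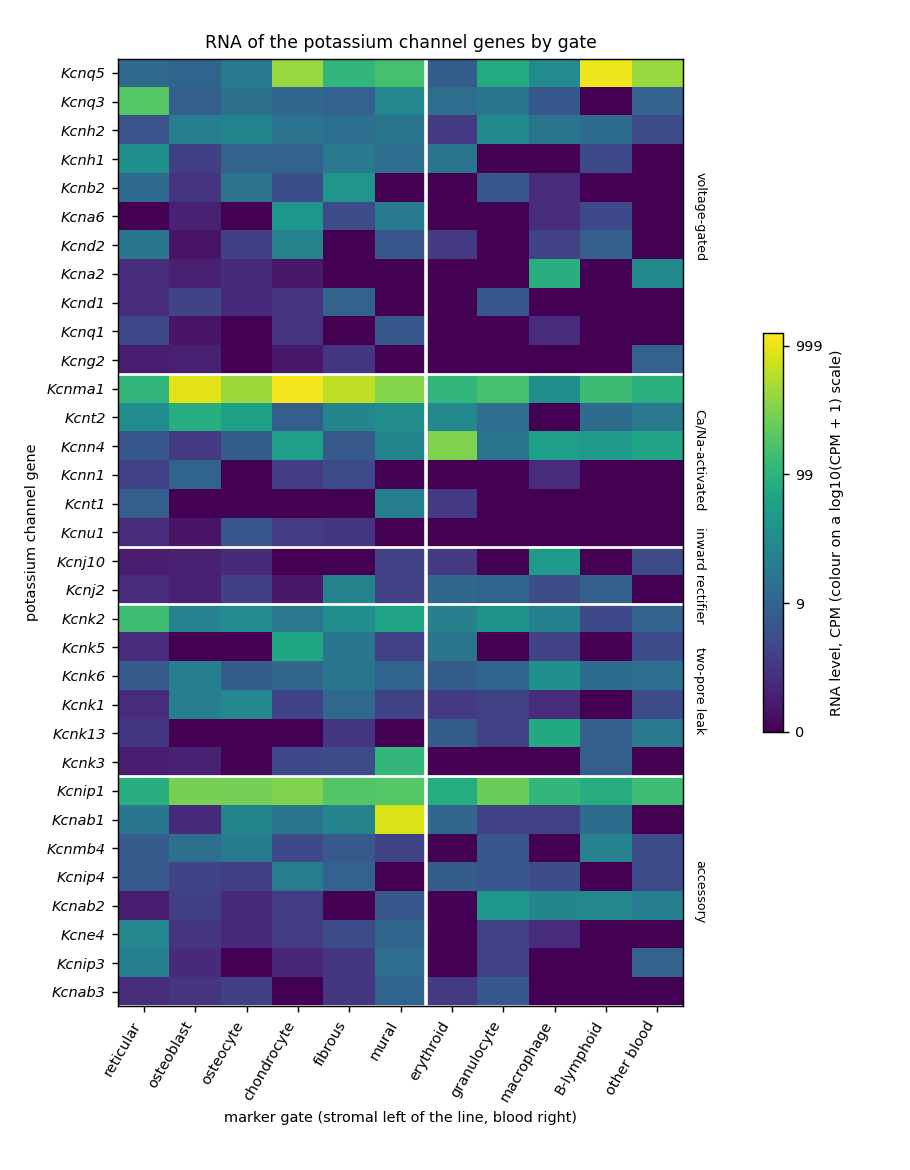
Levels of described members (rows) in the 11 gates (columns), with colour for CPM on a log10(CPM + 1) scale and rows grouped by family. Kcnma1 and Kcnip1 are bright in most columns, whereas Kcnab1 is bright in mural, Kcnk5 in chondrocyte and Kcna2 in macrophage nuclei.

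Among the channels opened by calcium, Kcnma1 (ENSMUSG00000063142, chr14:23289431-24014491, minus strand) encodes the pore of the large-conductance channel, which opens with both voltage and calcium. It stood at 950.4 CPM (909 to 993) in osteoblasts and 1101 CPM (1049 to 1154) in chondrocytes. Fibrous nuclei held 641 CPM, osteocytes 436, mural nuclei 334 and reticular nuclei 107 CPM (89.9 to 125). In the blood gates it ran from 35.1 CPM in macrophages to 156 in granulocytes. Every stromal gate but the reticular one thus exceeded every blood gate beyond the intervals, while the reticular level lay within the range of the blood gates. The free RNA of 62603 barcodes without a nucleus held 68.2 CPM of Kcnma1. The stromal sum held 703 CPM (682 to 723) against 92.3 CPM (79.3 to 107) in blood, a log2 ratio of 2.92. Among stromal gates the reticular ratio was -3.01 and the mural ratio -1.11. The osteoblast and chondrocyte ratios of 0.70 and 0.93 stayed under 2-fold.

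Kcnmb4, an accessory subunit of this channel, held 17.2 CPM (8.90 to 30.1) in osteocytes, 12.8 CPM (8.42 to 18.6) in osteoblasts and 3.86 CPM (1.42 to 8.398) in chondrocytes. B-lymphoid nuclei held 22.9 CPM (8.41 to 49.9) from 6 UMIs. The intervals of osteocytes and osteoblasts overlap, and so do those of osteocytes and the summed other stromal gates, although the ratio of 1.17 was above 2-fold. Kcnt2, the pore of a sodium-activated channel, stood at 87.6 CPM (75.4 to 101) in osteoblasts and 58.8 CPM (42.2 to 79.8) in osteocytes. It held 7.72 CPM (3.99 to 13.5) in chondrocytes, 31.1 CPM in reticular nuclei, 33.1 in mural nuclei and 25.4 in fibrous nuclei. Bone cells were therefore the high end and cartilage the low end of this gene in the stroma, with an osteoblast ratio of 1.71 and a chondrocyte ratio of -2.87. In blood, erythroid nuclei held 28.8 CPM (14.9 to 50.3) from 12 UMIs, and macrophages held 0 UMIs. The related Kcnt1 had 10 UMIs in reticular and 7 in mural nuclei, 7.40 CPM (3.55 to 13.6) and 21.1 CPM (8.48 to 43.4), and at most 1 in any other gate.

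Kcnn4 (ENSMUSG00000054342, chr7:24370263-24386690, plus strand) encodes the intermediate-conductance channel opened by calcium, known in red cells as the Gardos channel. Its level was 317 CPM (265 to 375) in erythroid nuclei. Other blood nuclei held 62.99 CPM, macrophages 55.6 CPM (39.3 to 76.3), B-lymphoid nuclei 45.8 and granulocytes 14.8. Erythroid nuclei exceeded each of the other blood gates beyond their intervals, and the middle 3 of the blood gates did not differ beyond theirs. In the stroma it was highest in chondrocytes at 54.7 CPM (43.7 to 67.6), with 24.1 CPM in mural nuclei and 2.37 to 7.17 CPM in the other gates. The erythroid ratio was 2.78, the chondrocyte ratio 3.21 and the stromal to blood ratio -2.57. Kcnn1, a small-conductance channel of the same family, had 19 of its 29 stromal UMIs in osteoblasts, where it stood at 8.99 CPM (5.41 to 14.04), a ratio of 1.95. Kcnu1, known as a channel of sperm, had 12 UMIs in the stromal gates and 0 in blood, too few for a comparison.

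**Figure D3:**
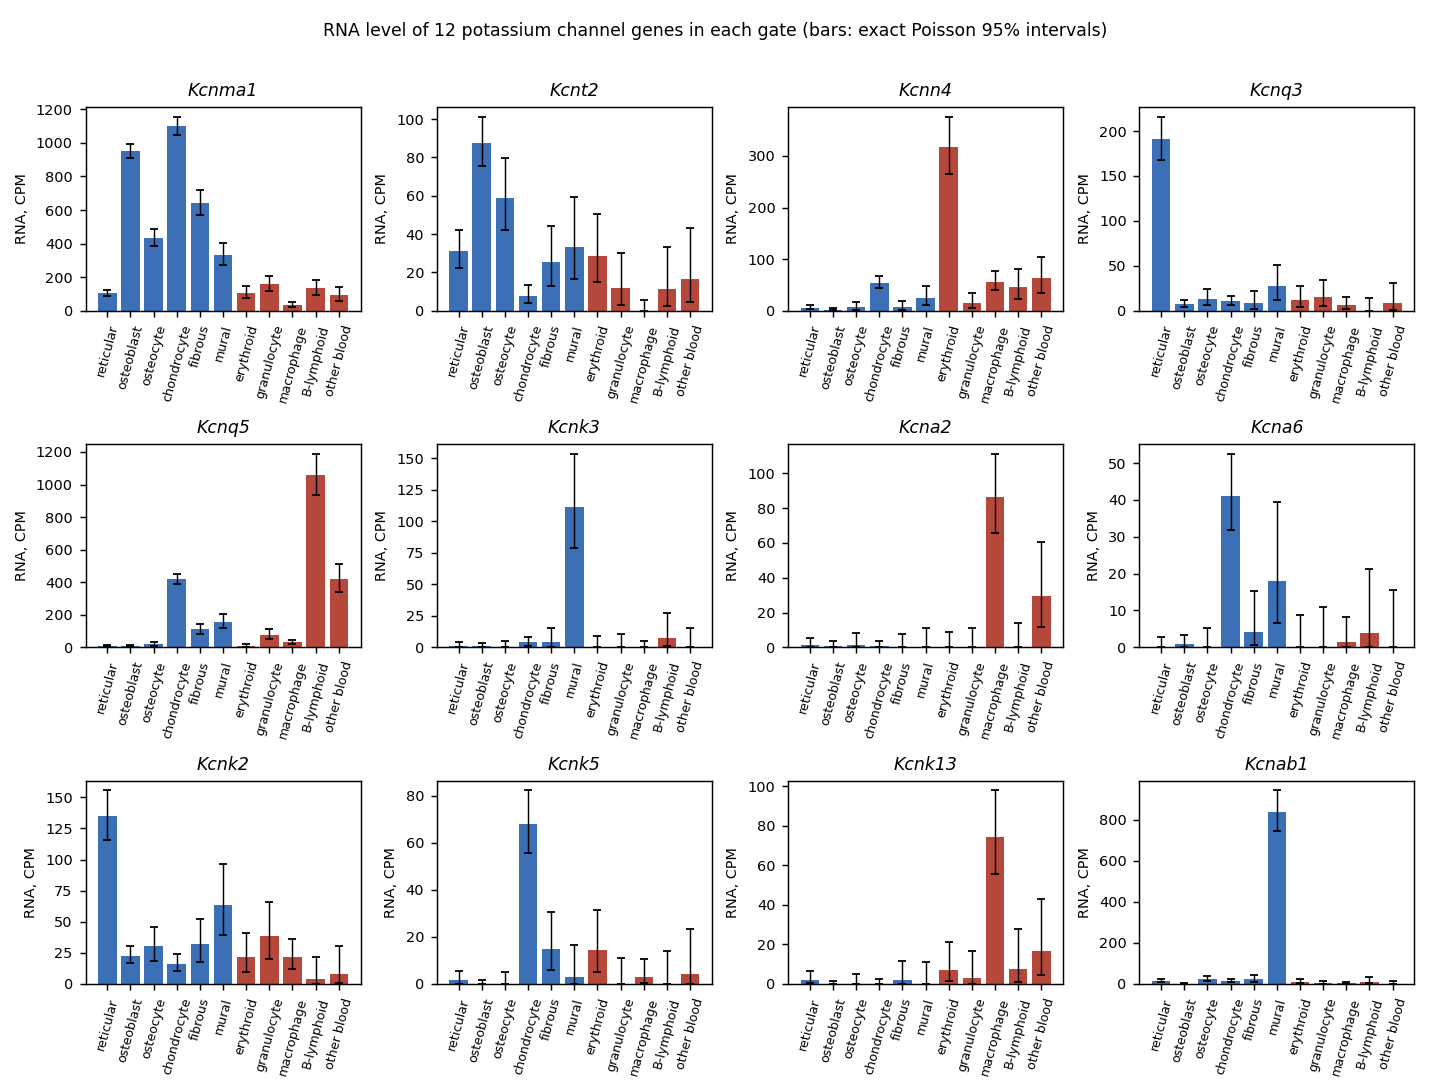
Levels of leading members in each gate, in CPM with exact Poisson 95% intervals, stromal gates in blue and blood gates in red. The panels show Kcnma1 at 1101 CPM in chondrocytes, Kcnq5 at 1058 in B-lymphoid nuclei and Kcnn4 at 317 in erythroid nuclei.

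Among the voltage-gated pores, members of the Kcnq family, known for slow currents that damp excitability, divided among the cell types. Kcnq5 (ENSMUSG00000028033, chr1:21398403-21961942, minus strand) stood at 1058 CPM (937 to 1190.1) in B-lymphoid and 419.9 CPM (342 to 511) in other blood nuclei, and at 419 CPM (387 to 452) in chondrocytes. Mural nuclei held 157 CPM (117 to 205), fibrous nuclei 110.03 CPM (82.2 to 144) and granulocytes 76.8 CPM. Erythroid, reticular, osteoblast, osteocyte and macrophage nuclei all lay between 7.20 and 30.7 CPM. The high gates of Kcnq5 were thus B-lymphoid, other blood and chondrocyte nuclei. The B-lymphoid and chondrocyte ratios on their own sides were 3.56 and 3.79. Other blood nuclei also held 122 CPM of Pax5 and 886 CPM over the B-lymphoid markers, whose part in their Kcnq5 level was not tested. The ratio of other blood nuclei was 1.13, but it turned to -0.30 when clusters of nuclei replaced the gates. The gene was high on both sides, and the stromal to blood ratio was -0.84, under 2-fold.

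Kcnq3 (ENSMUSG00000056258, chr15:65986387-66286642, minus strand) showed another order within the stroma. Reticular nuclei held 191 CPM (168 to 216), mural nuclei 27.1 CPM (12.4 to 51.5), and osteocytes, chondrocytes, fibrous nuclei and osteoblasts from 7.57 to 12.9 CPM. The blood gates ran from 0 UMIs in B-lymphoid nuclei to 14.8 CPM in granulocytes. The interval of every other gate lay below that of reticular nuclei, whose ratio was 4.18, and reticular nuclei had the lowest median share of mitochondrial UMIs, whose part in this was not tested. Chondrocyte, osteoblast, fibrous and osteocyte ratios were -2.49, -3.11, -2.42 and -1.93. Kcnq1, a channel of heart and epithelia that overlaps the antisense transcript Kcnq1ot1, had at most 5 UMIs in any gate.

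Kcnb2, a delayed rectifier, held 40.2 CPM (24.2 to 62.8) in fibrous nuclei, 14.3 CPM in osteocytes, 11.1 in reticular nuclei and 0 UMIs in mural nuclei. Its fibrous ratio was 2.77. Kcng2, which encodes a silent partner of delayed rectifiers, had at most 2 UMIs in any gate.

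The shaker-type genes Kcna6 and Kcna2 were high on opposite sides. Kcna6 (ENSMUSG00000038077, chr6:126708329-126740674, minus strand) stood at 41.2 CPM (31.7 to 52.6) in chondrocytes from 64 UMIs and at 18.1 CPM (6.63 to 39.3) in mural nuclei from 6. Fibrous nuclei and osteoblasts had 2 UMIs each, and reticular nuclei and osteocytes had 0. The chondrocyte ratio was 4.29 and the stromal to blood ratio 3.15. Over all 14 chondrocyte markers, mural nuclei also held a higher level than any other gate but the chondrocytes, at 7719 CPM. Chondrocytes held 51750.0 CPM and fibrous nuclei 5178. In mural nuclei 12 of these markers had at least 10 UMIs and none was at 0. Over the 11 of them used in scoring, osteoblasts held 4059 CPM (3973 to 4146), above mural nuclei at 3470 CPM (3272 to 3676). Col2a1 stood at 2894 CPM in mural, 21317 in chondrocyte and 765 in osteoblast nuclei, while the free RNA held 4616 CPM. The part of these markers in the mural levels of Kcna6, Kcnq5 and Kcnn4 was not tested. Kcna2 was instead a gene of the macrophage gate, with 86.3 CPM (65.7 to 111) from 59 UMIs and 29.4 CPM (11.8 to 60.6) in other blood nuclei. The erythroid, granulocyte and B-lymphoid gates had 0 UMIs of it and no stromal gate more than 2. Its stromal to blood ratio was -5.10 and its macrophage ratio 3.87. With at most 20% mitochondrial UMIs 19 UMIs of Kcna2 were left in the blood gates and with at most 10% only 4, too few for a call, at macrophage ratios of 4.43 and 5.01.

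Of the ether-a-go-go genes, Kcnh1 stood at 34.8 CPM (25.6 to 46.2) in reticular nuclei, against 16.9 CPM in fibrous, 12.05 in mural and 2.84 in osteoblast nuclei, a reticular ratio of 2.28. Kcnh2, which carries a repolarising current of the heart, was spread over all gates from 2.40 CPM in erythroid nuclei to 29.5 in granulocytes. The nuclei kept held 16.3 CPM of it and the free RNA 15.1 CPM (13.1 to 17.2), so its mean level in nuclei was close to that outside them. The osteoblast cluster was above the free RNA, at 29.9 CPM (24.8 to 35.8) from 121 UMIs. It is not the osteoblast gate, as 362 of its 699 nuclei passed no gate. In the gates, accessibility of Kcnh2 was 110 ATAC CPM (104 to 116) in osteoblasts and 107 (98.8 to 116) in osteocytes, against 34.5 (32.1 to 37.0) in reticular nuclei. Its granulocyte ratio of 1.68 rested on 10 UMIs with overlapping intervals. Kcnd2, a pore of the transient current, stood at 23.2 CPM (16.2 to 32.05) in chondrocytes and 15.5 CPM (9.62 to 23.8) in reticular nuclei, with 1 UMI in osteoblasts and 0 in fibrous nuclei. The first 2 gates overlap in their intervals and both exceed osteoblasts. Its close relative Kcnd1 had at most 7 UMIs in a gate.

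The leak channels differed in the gate where they were highest, except that Kcnk6 and Kcnk13 were both highest in macrophages. Kcnk2 (ENSMUSG00000037624, chr1:189207930-189402273, minus strand), a channel sensitive to stretch and lipids, held 135 CPM (116 to 156) in reticular nuclei. Mural nuclei held 63.2 CPM (39.2 to 96.7), fibrous nuclei 31.7 CPM, osteocytes 30.1, osteoblasts 22.7 and chondrocytes 16.1. Reticular nuclei were above mural nuclei, and mural nuclei above osteoblasts and chondrocytes, beyond the intervals. In blood it ran from 3.82 CPM in B-lymphoid nuclei to 38.4 in granulocytes. Reticular, chondrocyte and osteoblast ratios were 2.42, -1.82 and -1.39, and the stromal to blood ratio 1.20. The granulocyte ratio of 1.21 rested on 13 UMIs with overlapping intervals.

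Kcnk3 (ENSMUSG00000049265, chr5:30588170-30625271, plus strand) and Kcnk5 (ENSMUSG00000023243, chr14:20140057-20181809, minus strand) encode channels that close in acid. Kcnk3 stood at 111 CPM (78.5 to 154) in mural nuclei from 37 UMIs. The other stromal gates had at most 6 UMIs and the osteocytes 0, so the mural ratio was 5.93. Kcnk5 stood at 68.2 CPM (55.8 to 82.4) in chondrocytes from 106 UMIs, at 14.8 CPM (5.96 to 30.5) in fibrous nuclei and at 14.4 CPM (5.28 to 31.3) in erythroid nuclei. Osteoblasts and osteocytes had 0 UMIs of it. Its chondrocyte ratio was 5.02, and its stromal to blood ratio of 1.87 turned to -0.94 among nuclei with at most 10% mitochondrial UMIs.

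Kcnk1, a weakly rectifying leak channel, was highest in bone cells, with 27.3 CPM (16.4 to 42.6) in osteocytes and 20.4 CPM (14.7 to 27.4) in osteoblasts, whose intervals overlap. Fibrous nuclei held 10.6 CPM, and chondrocyte, mural and reticular nuclei at most 3.22. Osteoblast and osteocyte ratios were 1.48 and 1.53. Kcnk6, of the same subgroup, held 35.1 CPM (22.5 to 52.2) in macrophages and 20.8 CPM (15.1 to 27.96) in osteoblasts. Free RNA held 14.4 CPM (12.5 to 16.5) of Kcnk6 and the nuclei kept 12.4. Only these 2 gates had intervals above the free RNA level of 14.4, and the osteoblast interval overlaps that of the free RNA. The macrophage and osteoblast ratios were 1.85 and 1.23. Kcnk13, known in microglia and other macrophages, stood at 74.6 CPM (55.6 to 98.1) in the macrophage gate and 16.8 CPM (4.58 to 43.01) in other blood nuclei. No stromal gate had more than 3 UMIs of it, and its stromal to blood ratio of -5.52 was the lowest of the 29.

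Of the inward rectifiers, Kcnj10, which in glia clears potassium, had 31 UMIs in macrophages, 45.4 CPM (30.8 to 64.4). Every other gate had at most 2 UMIs, and the free RNA held 6.17 CPM. Its macrophage ratio was 4.53 and its stromal to blood ratio -4.36. With at most 20% and at most 10% mitochondrial UMIs the blood gates held 11 and 4 UMIs of it, too few for a call. Kcnj2, the classical strong rectifier, stood at 23.3 CPM (11.6 to 41.6) in fibrous nuclei from 11 UMIs, and each other stromal gate had at most 2. In blood it ran up to 9.59 CPM in erythroid nuclei. Its stromal to blood ratio of -1.11 had overlapping intervals, and its stromal total of 19 UMIs was below the minimum for a comparison among stromal gates. Kcnj8, the rectifier that assembles with the sulfonylurea receptor Abcc9, had fewer than 20 UMIs, although Abcc9 itself stood at 349 CPM (289 to 419) in mural nuclei, a ratio of 3.16.

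Among the accessory subunits, Kcnab1 (ENSMUSG00000027827, chr3:65109384-65378223, plus strand), a cytoplasmic partner of shaker-type pores, stood at 840.3 CPM (745 to 945) in mural nuclei. The next gates were osteocytes with 24.4 CPM (14.2 to 39.05) and fibrous nuclei with 23.3 CPM (11.6 to 41.6), which overlap. Reticular nuclei held 15.5 CPM, chondrocytes 15.4 and osteoblasts 1.42, and blood gates from 0 UMIs to 11.5 CPM. The mural ratio was 6.09, the highest of any member in a single gate. Kcnab2, which overlaps the protein-coding gene Nphp4, went the other way, with 2.15 CPM (1.17 to 3.60) against 22.7 CPM (16.5 to 30.5) in blood and a stromal to blood ratio of -3.37. Within blood, granulocytes held 44.3 CPM, B-lymphoid nuclei 26.7, macrophages 24.9, other blood nuclei 21.00 and erythroid nuclei 0 UMIs. The granulocyte ratio of 1.31 had overlapping intervals. Kcnab3 had at most 4 UMIs in a gate.

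The calcium-binding partners of transient channels were split between gates as well. Kcnip1 was the second member by UMIs and was broad, from 81.6 CPM in erythroid to 314 in chondrocyte nuclei, with 254 CPM (203 to 314) in granulocytes and 90.3 CPM (74.96 to 108) in reticular nuclei. The granulocyte ratio was 1.31 and the reticular ratio -1.62. Gm42418, an abundant non-coding gene that holds ribosomal RNA, ran from 177930.0 CPM in B-lymphoid to 398620.0 in granulocyte nuclei, with 328010.0 in osteoblasts. It was lower in chondrocytes (234490.0), where Kcnip1 was highest, than in reticular nuclei (255670.0), and its part in these levels was not tested. Kcnip3, also known as a repressor of transcription, stood at 21.5 CPM (14.4 to 30.8) in reticular nuclei and 12.05 CPM (3.28 to 30.8) in mural nuclei, with at most 3 UMIs in any other gate and a reticular ratio of 3.43. The mural ratio of 1.24 rested on 4 UMIs with overlapping intervals. Kcnip4 stood at 19.3 CPM (13.02 to 27.5) in chondrocytes, a ratio of 2.11, and had 0 UMIs in mural and B-lymphoid nuclei. Kcne4, an inhibitory subunit of Kcnq-type and other pores, stood at 25.9 CPM (18.04 to 36.02) in reticular nuclei against at most 9.04 CPM in any other gate, a ratio of 3.23, while free RNA held 5.33 CPM.

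Counted gate by gate, 24 members could be compared among the stromal gates. In reticular nuclei 5 were higher and 13 lower, where 21.4% and 10.3% of the 11356 genes compared were higher and lower. The osteoblasts had 4 higher and 14 lower members, beside 2.84% and 29.4% of all genes. The osteocytes had 3 higher and 12 lower, beside 4.9% and 19.3%. Chondrocytes had 6 higher and 10 lower members, beside 12.2% and 16.7% of all genes. Fibrous nuclei had 1 higher and 6 lower, beside 9.38% and 11.9%, and mural nuclei 4 higher and 7 lower, beside 15.7% and 11.7%. In each of the 6 stromal gates the share of lower members was above that of all genes. These gates share their comparison sums, so they are no independent cases. Over the 6 gates together, lower calls outnumbered higher ones, but not with 5 counts added to each side in place of 0.5. As shares of the 24 members the higher calls were 20.8% in reticular, 16.7% in osteoblast, 12.5% in osteocyte, 25.0% in chondrocyte, 4.17% in fibrous and 16.7% in mural nuclei. The reticular and mural shares of higher members were therefore close to those of all genes.

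Only 12 members had enough UMIs among the blood gates. Erythroid nuclei had 2 higher and 7 lower, beside 14.6% and 28.5% of the 8956 genes compared. Granulocytes had 4 and 6, beside 5.49% and 31.3%, and macrophages 4 and 4, beside 16.7% and 19.0%. The macrophage members that were higher were Kcnj10, Kcna2, Kcnk13 and Kcnk6, of which the last is a leak channel of another subgroup than Kcnk13. Macrophage nuclei also had the highest median share of mitochondrial UMIs, and 20 of the 223 had at most 10%, so the part of this share in their levels was not tested. B-lymphoid nuclei had 1 higher and 5 lower, beside 19.1% and 16.7%, and other blood nuclei 1 higher and 3 lower, beside 7.99% and 13.5%. Of the 4 granulocyte calls, 3 (Kcnh2, Kcnab2 and Kcnk2) had intervals that overlap those of the other blood gates.

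A fixed list of 65 other genes of ion transport was measured in the same way. Across the sides 45 could be compared, of which 21 (46.7%) were higher in stroma and 11 (24.4%) lower, beside 17.9% and 27.1% of all genes. This list and all genes were not matched for count level either. Of 42 compared among stromal gates, 12 (28.6%) were higher and 11 (26.2%) lower in reticular nuclei, beside 21.4% and 10.3% of all genes. Osteoblasts had 5 (11.9%) and 23 (54.8%), beside 2.84% and 29.4%, and osteocytes 3 (7.14%) and 15 (35.7%), beside 4.9% and 19.3%. Chondrocytes had 6 (14.3%) and 14 (33.3%), beside 12.2% and 16.7%. Fibrous nuclei had 5 (11.9%) and 10 (23.8%), beside 9.38% and 11.9%, and mural nuclei 14 (33.3%) and 3 (7.14%), beside 15.7% and 11.7%. Mural nuclei thus had the most higher calls of this list, and beside Abcc9 they included Ryr2, a calcium release channel, with a ratio of 5.62, and Cacna1c, the pore of the main calcium channel of smooth muscle, with 2.17. Beside the chondrocyte members stood Trpv4, an osmotically gated cation channel, with a ratio of 3.43, and Panx3, a pannexin of cartilage and bone, with 3.33. In osteocytes the sodium channel Scn1a had a ratio of 3.93, and beside erythroid Kcnn4 stood the calcium pump Atp2b4 with 2.59. The genes named here are single examples from the list, given by ratio only. Among 29 compared in the blood gates, 3 (10.3%) were higher and 13 (44.8%) lower in erythroid nuclei, beside 14.6% and 28.5% of all genes. Granulocytes had 1 (3.45%) and 10 (34.5%), beside 5.49% and 31.3%, and macrophages 8 (27.6%) and 6 (20.7%), beside 16.7% and 19.0%. B-lymphoid nuclei had 5 (17.2%) and 11 (37.9%), beside 19.1% and 16.7%. Other blood nuclei had 3 (10.3%) and 2 (6.90%), beside 7.99% and 13.5%.

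Accessibility gave a second readout that the gates had not used. For each gene the ATAC counts of peaks over its body and the 3 kb upstream were summed and given as ATAC CPM, and a difference of 1.5-fold with at least 20 counts was called. Between the sides, 16 of 36 members were more accessible in stroma and 7 less, beside 26.6% and 21.9% of the 24488 genes compared. The member median of the log2 ratio was 0.38 and that of all genes -0.20. Kcnma1 held 269.6 (265 to 274) against 64.8 (61.9 to 67.8) ATAC CPM in blood. Kcnk13 held 11.3 (10.4 to 12.2) against 81.00 (77.8 to 84.3) ATAC CPM, and Kcnn4 17.7 (16.7 to 18.8) against 80.2 (76.97 to 83.5) ATAC CPM. In each of these 3 genes accessibility and RNA were called the same way.

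Among the stromal gates 35 members had enough ATAC counts. In reticular nuclei 4 were higher and 15 lower, beside 10.8% and 24.5% of all genes, in osteoblasts 6 and 10, beside 11.1% and 18.4%, and in osteocytes 5 and 7, beside 10.3% and 14.3%. In chondrocytes 8 were higher and 3 lower, beside 16.8% and 12.4%, in fibrous nuclei 6 and 3, beside 10.4% and 11.9%, and in mural nuclei 5 and 10, beside 10.2% and 15.1%. In blood all 36 could be compared. Erythroid nuclei had 8 higher and 16 lower, beside 20.2% and 33.5%, granulocytes 9 and 7, beside 12.5% and 17.3%, and macrophages 6 and 5, beside 16.8% and 17.3%. B-lymphoid nuclei had 7 higher and 10 lower, beside 13.7% and 18.4%, and other blood nuclei 6 and 9, beside 7.85% and 14.2%.

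Several members were open where their RNA was high. The Kcna6 gene held 31.00 (27.6 to 34.7) against 1.82 (1.46 to 2.24) ATAC CPM in chondrocytes and the other stromal gates, a log2 ratio of 4.09, and Kcnk5 held 136 (128 to 143) against 17.7 (16.6 to 18.9) ATAC CPM, a ratio of 2.94. Kcnn4 held 213 (199 to 227) against 58.2 (55.2 to 61.3) ATAC CPM in erythroid and other blood nuclei. These were the 2 cartilage members and the red cell member with the highest RNA ratios of their gates. Kcnq3 held 99.2 (95.1 to 103) against 34.6 (32.7 to 36.5) ATAC CPM in reticular and other stromal nuclei, Kcnk3 80.1 (71.9 to 89.05) against 24.3 (22.99 to 25.6) ATAC CPM in mural and other stromal nuclei, and Kcnk1 89.3 (83.8 to 95.01) against 26.2 (24.8 to 27.7) ATAC CPM in osteoblasts and other stromal nuclei. Kcnk3 was, however, as open in B-lymphoid nuclei, at 85.2 ATAC CPM (77.2 to 93.8), although its RNA was higher in stroma than in blood. In macrophages all 4 members with higher RNA, Kcna2, Kcnk13, Kcnj10 and Kcnk6, were also called more accessible, with ratios of 2.19, 1.49, 0.98 and 0.92.

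Other members did not show this. Kcnab1, with the highest mural RNA ratio, held 42.4 (36.5 to 48.99) against 57.3 (55.4 to 59.4) ATAC CPM in mural and other stromal nuclei, a ratio of -0.43, and reticular nuclei held 77.8 ATAC CPM of it. The peak over its start held 2.78 ATAC CPM (1.44 to 4.86) against 2.05 (1.76 to 2.38) in mural nuclei and all other gates, intervals that overlap. Kcnip1, whose stromal to blood RNA ratio was 0.89, had an accessibility ratio of -0.86 and overlaps the protein-coding gene Kcnmb1.

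Over single gates, 35 higher RNA calls were made. The accessibility ratio was above 0 for 30 of them and called higher for 22. These are 85.7% and 62.9%, beside 75.7% and 27.7% of the 13178 higher calls over all genes. Of 87 lower RNA calls, 70 (80.5%) had a ratio below 0 and 42 (48.3%) were called lower, beside 73.5% and 28.4% over all genes. Between the sides, 13 of the 17 members higher in stroma had a ratio above 0 (76.5%, beside 86.3% over all genes) and 11 were called (64.7%, beside 67.1%). All 6 lower members had one below 0, with 4 called, beside 93.5% and 46.2% over all genes. These counts repeat members across gates, and gates of 1 side share their comparison sums, so they are no independent cases. In 13 of the members whose single peaks were read, a peak lay over the gene start, and the ratio of its level in the member's gate to that in all other gates ran from 1.41 to 18.3 with a median of 2.31. Only 2 exceeded 5-fold, the Kcna6 start peak with 17.5 ATAC CPM (15.01 to 20.3) against 0.952 (0.749 to 1.19) in chondrocytes and all other gates and the Kcnk1 start peak with 16.3 ATAC CPM (14.03 to 18.9) against 2.85 (2.49 to 3.25) in osteoblasts and all other gates. The gate with the member's high RNA was the highest of all gates at the start in 7 of the 13. Among the others, the Kcnk13 start stood at 10.1 ATAC CPM in macrophages against 31.9 in B-lymphoid nuclei, the Kcnk5 start at 20.3 in chondrocytes against 25.9 in erythroid nuclei, and the Kcnb2 start at 14.9 in fibrous nuclei against 23.3 in osteocytes.

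**Figure D4:**
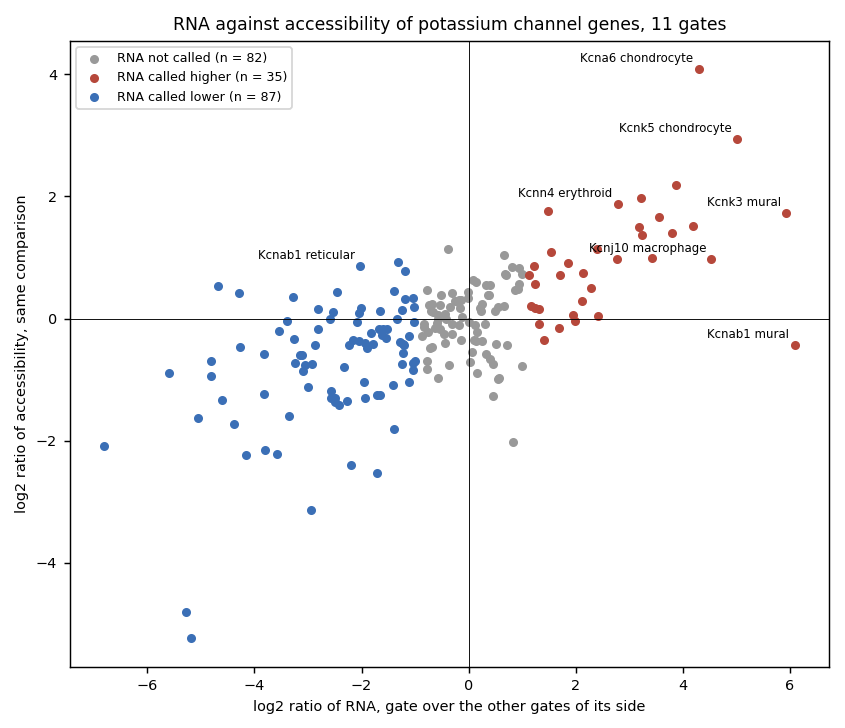
Log2 ratio of RNA (horizontal axis) against log2 ratio of accessibility (vertical axis) for members in single gates against the other gates of the same side, 1 point per member and gate, red where RNA was called higher, blue lower and grey neither. Kcna6 in chondrocytes lies at 4.29 and 4.09, and Kcnab1 in mural nuclei at 6.09 and -0.43.

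Clusters of nuclei, made without any member among the genes used, split some gates further. Of the gated nuclei 80.3% fell in a cluster named after the same markers. This share was uneven, from 48 of 106 other blood and 114 of 215 chondrocyte nuclei to 120 of 121 B-lymphoid nuclei. The macrophage or osteoclast markers named 2 clusters. One, of 294 nuclei led by genes such as Fcgr1, Siglec1 and Fcna, which are known in phagocytic macrophages, held 100.01 CPM (78.4 to 126) of Kcna2, 91.8 CPM (71.1 to 117) of Kcnk13 and 45.2 CPM (31.1 to 63.5) of Kcnj10. The other, of 41 nuclei led by Ocstamp, Atp6v0d2, Dcstamp and Acp5, which are known in osteoclasts, had 0 UMIs of all 3 (interval 0 to 21.7 CPM). It held 217 CPM (153 to 299.6) of Kcnn4, against 27.4 CPM (16.7 to 42.3) in the larger cluster. The macrophage gate took in 189 nuclei of the larger and 31 of the smaller cluster, and its Kcnn4 level was not split between them. Of the 2 clusters, only the larger one held UMIs of Kcna2, Kcnk13 and Kcnj10. Kcnk6 was seen in both, at 34.3 CPM (22.2 to 50.6) and 17.6 CPM (3.63 to 51.5), intervals that overlap.

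**Figure D5:**
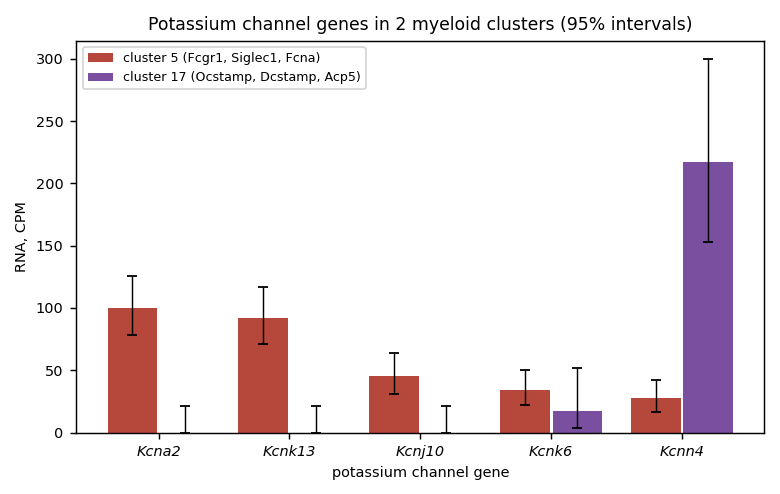
Levels of macrophage members in the 2 clusters named from macrophage or osteoclast markers, in CPM with exact Poisson 95% intervals. Kcna2, Kcnk13 and Kcnj10 are at 0 in the 41 nuclei led by Ocstamp and Dcstamp, where Kcnn4 stands at 217 CPM.

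In the mural cluster 2 members stood higher than in the gate of the same name, with intervals that overlap those of the gate. It held 938 CPM (838 to 1047) of Kcnab1 and 129.8 CPM (94.3 to 174) of Kcnk3. A cluster of 138 nuclei named other blood, led by Ctsg, Ccr2 and Flt3, held 186 CPM (141 to 242) of Kcnq5, below the B-lymphoid cluster at 1029 CPM (933 to 1133). The endothelial cluster of 25 nuclei, which had no part in the gate comparisons, held 91.7 CPM (39.6 to 181) of Kcnq1 from 8 UMIs, above all gates, where this gene had at most 5 UMIs.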

How the data were processed

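The authors aligned RNA and ATAC reads to mm10 with the tdTomato-WPRE sequence added, using Cell Ranger ARC 2.0.0, and deposited raw counts (UMIs per gene and ATAC counts per peak) for 728634 barcodes. A deposited peak list was not used. There was 1 RNA library of 35460453 UMIs and 1 ATAC library of 191398837 counts in peaks. No normalized value was taken from the authors.

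Barcodes with at least 500 UMIs outside mitochondrial genes and 1000 peak counts were kept. No mitochondrial limit was set, and 68.6% of these barcodes exceeded 10%. For each marker list a nucleus was scored by the Poisson log-likelihood ratio (natural log) of a 3-fold excess of marker UMIs over the level expected from all kept nuclei, or from free RNA where that was higher. It entered the gate of its best list if this score was at least 3 and at least 2 markers were seen. Markers over 1000 CPM in the free RNA were left out of scoring. Of the kept nuclei, 502 lay within 1 of the cut. Nuclei of a stromal and a blood gate were left out. Scrublet in scanpy 1.11.5 called 1 nucleus (0.0223%) and so had not worked, and the 8% with the highest scores were left out only as an alternative.

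Counts were summed per gate and given as CPM with exact Poisson 95% intervals (scipy 1.17.1). Calls needed 2-fold and 20 UMIs (1.5-fold and 20 counts for accessibility). With 1 library there was no test and no p-value. Members called in a comparison, up to 8 per direction, were given values. Accessibility in blood gates, the printed peaks, the motif list, the agreement of RNA and accessibility over all genes and the cluster comparisons were added after the data were seen, and the members and lists were chosen with earlier results of these data known. Coordinates and gene overlaps come from GENCODE vM21 on GRCm38, on which 99.8% of the genes had a model of the same identifier. Whether the counting used strand or introns is not given in the sources used here. Sequences come from the RefSeq assembly of GRCm38, where all 203502 peaks on 21 chromosomes lay inside the sequence. Some members are not reported here by name or value, although the counts of members include them.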

Additional observations from a re-analysis of the deposited data

How the results depend on the processing

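The values came from 1 library of each kind, so the settings below show dependence on processing and not on animals. No paired analysis was possible because there was 1 library of each kind and no replicate number. Between stromal and blood gates 23 members were called. The number was 15 with at most 10% mitochondrial UMIs and 7 with nuclei thinned to 500 UMIs, and 18 to 26 under the other 10 settings. Among stromal gates 85 calls became 29 with thinning, and 5 counts added to each side in place of 0.5 turned 23 higher and 62 lower calls into 37 and 34. Among blood gates 37 calls became 10 with at most 10% mitochondrial UMIs, 21 with at most 20%, 10 with thinning and 19 with a minimum of 50 UMIs. The accessibility calls, 105 in all, became 53 at 2-fold. Among the members reported here, thinning turned the direction of Kcnd2 (-0.37) between stroma and blood, Kcne4 in reticular (-0.023), Kcnmb4 in osteocyte (-0.38), Kcnd2 in chondrocyte (-0.32) and Kcnip3 in mural nuclei (-0.65). At most 10% mitochondrial UMIs turned Kcnk5 between stroma and blood (-0.94), Kcnt2 in erythroid nuclei (-0.54) and Kcnd2 accessibility in chondrocytes (-0.043). Clusters in place of gates turned Kcnq5 in other blood nuclei (-0.30). Thinning leaves fewer UMIs by construction, and of the 57 calls that kept any UMI 42 then had too few counts. The cause of the other changes was not tested. Of all 58 named calls, 28 were kept with at most 10% and 49 with at most 20% mitochondrial UMIs, 41 with a minimum of 50 UMIs, 50 where intervals had to be apart, and 54 to 58 under the 7 other settings apart from thinning. Leaving the 10 most abundant genes out of the denominator moved the median log2 ratio of all genes by -0.34 in reticular to 0.48 in granulocyte nuclei. Kcnk2 and Kcnma1 have no peak counts within 1 kb of their start in the comparisons concerned, so this setting gave no value for them.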

Other observations

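Part of the members' RNA lay outside the 11 gates. The gates held 352 of 806 UMIs of Kcnk2 and 58 of 120 of Kcnb2, but 4761 of 7394 of Kcnma1. The markers did not name a cluster of 426 nuclei, of which 340 passed no gate. It was led by genes such as Gm10635, Mmp9, Ttc23l and Pde4c. This cluster held 273 CPM (241 to 307) of Kcnk2, the stretch-sensitive leak channel, against 135 CPM (116 to 156) in the reticular gate. The same cluster held 48.7 CPM (35.9 to 64.5) of Kcnh1, 44.6 CPM (32.4 to 59.9) of Kcnb2, 35.5 CPM (24.7 to 49.4) of Kcnd2 and 74.03 CPM (58.03 to 93.1) of Kcnt2. Its Kcnk2 level exceeded that of every gate beyond the intervals, while the Kcnb2 interval overlaps that of the fibrous gate. Another unnamed cluster of 45 nuclei, all without a gate, was led by genes such as Lvrn, Col4a5 and Rarb. It held 90.2 CPM (55.8 to 138) of Kcnk5, which overlaps the chondrocyte gate. An unnamed cluster of 203 nuclei, 170 of them without a gate, had a median of only 2.09% mitochondrial UMIs. It held 427 CPM (367 to 492) of Kcnip1, above every gate.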
